A study of Homo sapiens with 11 samples.

Results

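The interferon-induced transmembrane genes IFITM1, IFITM2 and IFITM3 were followed by their symbols through a table of 58699 genes, in which each of the 3 symbols names 1 gene. They were chosen by their FPKM values and the authors' calls on them in these same 4 groups, so both are given as a description. FPKM is a level corrected for transcript length and library size, of which the table lists a single value for each group.

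The cells were HCT116, an established human colorectal cancer line. Total RNA came from 4 groups of 2 libraries each. They received an siRNA to luciferase (siLuc), a control with no target in the cells, or one to Staufen1 (siStau1), a protein that binds double-stranded RNA. Each siRNA was combined with the solvent DMSO or with decitabine (DAC), a nucleoside that blocks DNA methyltransferases, given at 500 nM for 5 days. All cells thus carried an siRNA, and below, without DAC means with DMSO. The labels do not say whether the 2 libraries of a group came from separate cultures. Any spread between libraries that enters the deposited p-values may therefore be technical. How those p-values estimate spread was not examined here. Values per library were not analysed here, so no SD is given, and sequencing depth is unknown.

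IFITM proteins are small membrane proteins that hinder the fusion of enveloped viruses with the cell. IFITM1, also known as CD225, sits mainly at the cell surface, whereas IFITM2 and IFITM3 are found mainly in endosomes. All 3 genes are classic targets of interferon. Type I and type III interferons act through JAK kinases on a complex that includes STAT2 and IRF9 and binds the interferon-stimulated response element (ISRE) in promoters.

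The genes lie side by side on chromosome 11 (GRCh38, GENCODE release 29). IFITM2 (ENSG00000185201.16) spans 307631 to 315272 and IFITM1 (ENSG00000185885.15) spans 313506 to 315272, both on the plus strand. IFITM3 (ENSG00000142089.15) spans 319669 to 327537 on the minus strand. An annotated IFITM2 transcript runs through into the exons of IFITM1. It makes 351 of the 1080 exonic bases of IFITM1 (32.5%) also exonic bases of IFITM2, and the authors' table places both genes in 1 shared locus.

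The members also resemble each other in sequence. The coding sequences, 378 bases in IFITM1, 399 in IFITM2 and 402 in IFITM3, were 86.9% identical over aligned bases between IFITM1 and IFITM2, 90.2% between IFITM1 and IFITM3 and 93.98% between IFITM2 and IFITM3. With that transcript left out, 9.18% of the 50-base stretches of IFITM1, 14.0% of those of IFITM2 and 16.0% of those of IFITM3 occurred in another member. For stretches of 100 bases these shares were 4.05%, 0.00% and 3.13%. In genes other than the members occurred 0.937%, 6.39% and 2.16% of the 50-base stretches, in the same order, and 0.0% of those of 100 bases. How the authors' pipeline divided reads between overlapping or similar genes is not stated. The division between the members, above all between IFITM1 and IFITM2, and between them and other genes is therefore uncertain.

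The promoters are shown because an interferon response acts there. The RefSeq promoter table (GRCh38.p14) holds windows of 250 bases before to 50 after the transcription start for IFITM1 and IFITM3. Both windows, at chr11:313790-314089 and chr11:320811-321110, lie inside the gene spans given above, which reach further upstream. IFITM2 was not matched. The stretches below run from 150 bases before the start to 10 after it, 5′ to 3′ on each gene's own strand, at chr11:313890-314049 (plus strand) for IFITM1 and chr11:320851-321010 (minus strand) for IFITM3. Capitals mark matches to the ISRE core, which is GAAA, any 2 bases and GAAA again.
IFITM1: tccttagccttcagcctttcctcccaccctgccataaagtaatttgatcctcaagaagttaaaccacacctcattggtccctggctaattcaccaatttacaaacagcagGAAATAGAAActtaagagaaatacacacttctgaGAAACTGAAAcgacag
IFITM3: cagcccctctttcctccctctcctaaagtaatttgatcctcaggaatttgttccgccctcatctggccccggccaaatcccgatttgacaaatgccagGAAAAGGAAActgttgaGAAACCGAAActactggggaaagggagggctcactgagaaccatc

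Each window held 2 matches to the ISRE core, searched on both strands. In IFITM1 they covered bases -40 to -31 and -6 to 4 relative to the start, and in IFITM3 bases -52 to -43 and -35 to -26. Of all 35116 promoter windows in the table, 3.57% held at least 1 such match and 0.259% held 2 or more. CpG dinucleotides, the sites of DNA methylation, numbered 3 in the IFITM1 window and 8 in the IFITM3 window, against a median of 14 over all windows. The window of IFITM5, a neighbouring family member, had 16 CpG dinucleotides and 0 ISRE matches. A match describes the sequence only, and neither binding nor methylation was measured.

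IFITM1 had 191 FPKM without and 562 with DAC under siLuc, and 8.80 without and 239 with DAC under siStau1. The siStau1 DMSO group thus stood far below the other 3. IFITM2 had 190 FPKM without and 490 with DAC under siLuc, and 57.1 without and 251 with DAC under siStau1. IFITM3, the most abundant of the family in every group, had 599, 1337, 203 and 703 FPKM in the same order. For each of the 3 genes siLuc DAC was highest and siStau1 DMSO lowest, with siStau1 DAC a little above siLuc DMSO in FPKM. As a share of all FPKM in its group, siStau1 DAC was instead slightly below siLuc DMSO for each gene. In this order, the shares were 0.0160% and 0.0169% for IFITM1, 0.016855% and 0.016868% for IFITM2, and 0.0471% and 0.0530% for IFITM3.

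**Figure D1:**
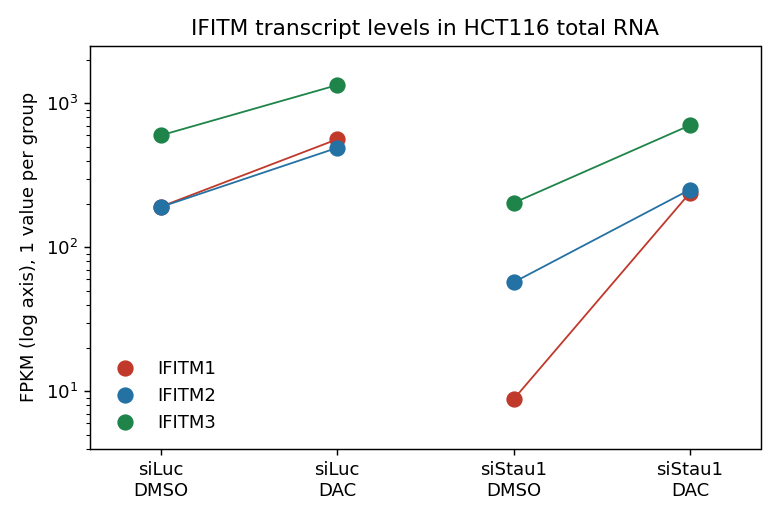
FPKM on a log axis of IFITM1, IFITM2 and IFITM3 in the 4 total RNA groups (x axis); each point is the authors' value for a group of 2 libraries, with no error bar because values per library were not analysed here, and lines join DMSO to DAC under the same siRNA. IFITM1 drops to 8.80 FPKM in siStau1 DMSO, while IFITM2 and IFITM3 stay at 57.1 and 203.

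These levels put the family among the abundant messages of the cell line. Among 11299 protein-coding genes with at least 1 FPKM in siLuc DMSO, IFITM3 ranked 165, IFITM1 471 and IFITM2 473. In siLuc DAC they ranked 72, 160 and 182 of 12040. In siStau1 DMSO IFITM3 still ranked 416 of 11235 and IFITM2 1658, but IFITM1 ranked 6747. In siStau1 DAC IFITM1 was back at 325 of 11857, close to IFITM2 at 311, and IFITM3 was at 123.

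The family's make-up was similar in 3 groups and different in the siStau1 DMSO group. Under siLuc, IFITM1 made up 19.5% of the summed FPKM of the 3 genes without DAC and 23.5% with it, and under siStau1 3.27% without and 20.01% with DAC. The share of IFITM2 lay between 19.4% and 21.2% in all 4 groups. IFITM3 held 61.1% and 55.96% under siLuc, and 75.5% without and 58.9% with DAC under siStau1. The level of IFITM1 relative to IFITM2 was accordingly 1.00 and 1.15 under siLuc, and 0.154 without and 0.95 with DAC under siStau1.

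**Figure D2:**
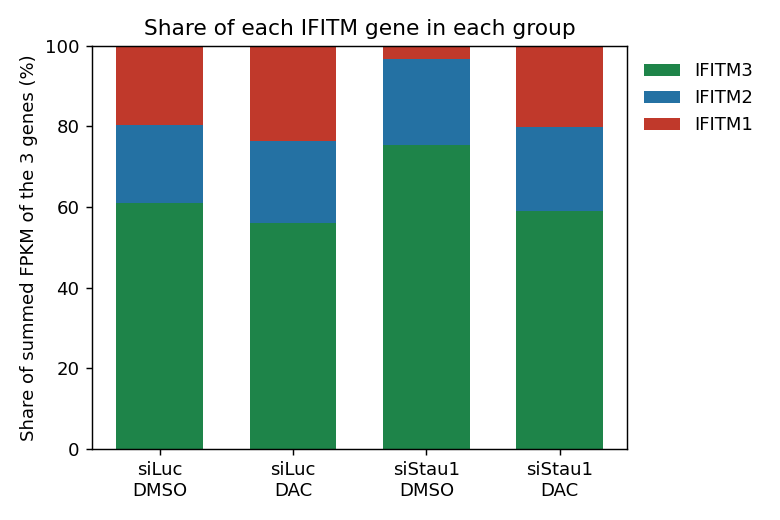
Share of each gene in the summed FPKM of IFITM1, IFITM2 and IFITM3 (percent, y axis) in each total RNA group (x axis). The IFITM1 part is 3.27% in siStau1 DMSO and between 19.5% and 23.5% in the other groups.

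The targeted gene was lower in both groups labelled siStau1, but only slightly. STAU1 had 35.5 FPKM in siLuc DMSO and 29.98 in siStau1 DMSO, and 33.7 in siLuc DAC and 27.1 in siStau1 DAC. Neither difference was called in the authors' deposited table, with q-values of 0.767 and 0.685, and protein was not analysed here. Of 7 colorectal epithelial markers, 6 had at least 1 FPKM in every group, EPCAM and the keratins KRT8, KRT18 and KRT19 among them. VIL1, the actin-bundling villin of the gut brush border, was under 0.2 FPKM throughout. In each arm 6 of the 7 markers had higher FPKM with DAC and 1 had lower. With DAC in siLuc, the authors' deposited table called 1 of 6 tested higher, KRT19, at 1419 against 537 FPKM. It called 1 lower, EPCAM, at 117 against 259. Of all tested genes, 8.71% were called higher and 4.78% lower. In siStau1 it called 2 of 6 higher with DAC, KRT18 (2415 against 509 FPKM) and KRT19 (1041 against 449), and 0 lower. The shares of all tested genes there were 4.56% and 2.89%. The 9 markers of leukocytes, fibroblasts and endothelium summed to 1.82 FPKM without and 12.9 with DAC under siLuc, and to 1.22 without and 10.2 with DAC under siStau1. The collagen gene COL1A1 made up most of this under siLuc, at 1.59 and 8.60 FPKM. Without DAC, the leukocyte marker PTPRC was listed at 0 under either siRNA, and with DAC it had 0.174 FPKM in siLuc and 0.820 in siStau1. Of these markers, 1 of 4 tested was called higher with DAC in siLuc, against 8.71% of all tested genes. It was PECAM1, at 0 FPKM without and 0.633 with DAC. In siStau1, 3 of 5 tested were called higher with DAC, against 4.56%. They were PTPRC, COL1A1 (0.826 and 5.65 FPKM) and VWF (0.0604 and 0.767 FPKM). The 100 genes of highest FPKM held 56.2% of all FPKM without and 69.1% with DAC under siLuc, and 50.4% without and 68.3% with DAC under siStau1. The part of the markers in the results was not tested, and ratios scaled outside those 100 genes stand with the other settings. In such bulk samples, fewer cells that express a gene and less RNA per cell cannot be told apart.

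Comparing siLuc DAC with siLuc DMSO addresses the response to the drug in control cells. IFITM1 was 2.94-fold higher with DAC (log2 ratio 1.55), IFITM2 2.57-fold (1.36) and IFITM3 2.23-fold (1.16). Ratios are of FPKM with a pseudocount of 0.1 added, which is small beside these levels. At a q-value under 0.05 the authors' deposited table called IFITM1 (q-value 0.00293) and IFITM3 (0.00732) but not IFITM2 (0.199), so 2 of the 3 genes, where 13.5% of the 17504 genes tested were called. The gene with the larger ratio, IFITM2, was thus not called while IFITM3 was.

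These increases were not extreme for this comparison. Among all tested genes, 82.8% had a lower log2 ratio than IFITM1, 79.6% than IFITM2 and 75.6% than IFITM3. Log2 ratios here differ with the GC content of transcripts, which is 52.5% for IFITM1, 55.4% for IFITM2 and 56.9% for IFITM3. Protein-coding genes of like GC content had median log2 ratios of 0.31, 0.55 and 0.76. Taking these off left 1.24 for IFITM1, 0.81 for IFITM2 and 0.40 for IFITM3.

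The same comparison in siStau1 cells gave larger ratios. IFITM1 was 26.8-fold higher in siStau1 DAC than in siStau1 DMSO (log2 ratio 4.75), IFITM2 4.40-fold (2.14) and IFITM3 3.46-fold (1.79). The authors' deposited table called all 3 genes, with q-values of 0.00162, 0.00293 and 0.00162, where 7.46% of 16979 tested genes were called. Among tested genes, 98.9% had a lower ratio than IFITM1, 92.0% than IFITM2 and 90.2% than IFITM3.

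The larger ratios in siStau1 started from lower DMSO levels. The log2 ratio of DAC in siStau1 minus that in siLuc was 3.19 for IFITM1, 0.77 for IFITM2 and 0.63 for IFITM3. Over the 15956 genes tested in both arms this difference had a median of -0.016 and quartiles of -0.44 and 0.37, and 72 genes, IFITM1 included, were at or above the value of IFITM1. No test of this contrast between siRNAs was made, since it would need values per library.

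Comparing siStau1 DMSO with siLuc DMSO addresses the knockdown without drug. IFITM1 was 21.5-fold lower in siStau1 (log2 ratio -4.43), IFITM2 3.33-fold lower (-1.74) and IFITM3 2.95-fold lower (-1.56). The authors' deposited table called all 3, with q-values of 0.00162, 0.0118 and 0.00162, where 0.799% of 15893 tested genes were called. Only 0.277% of tested genes had a lower ratio than IFITM1, against 3.56% for IFITM2 and 4.16% for IFITM3. When adjusted within this comparison alone, IFITM1 and IFITM3 had a q-value of 0.0274 and IFITM2 one of 0.137, where 0.208% of tested genes were called, and 0.346% at a q-value under 0.01 in the authors' deposited table.

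The overlapping pair was also taken as a unit. The summed FPKM of IFITM1 and IFITM2 was 382 without and 1053 with DAC under siLuc, and 65.9 without and 490.1 with DAC under siStau1. How far this sum depends on the division of reads between them was not tested, and it does not cover reads shared with IFITM3. The sum was 5.79-fold lower in siStau1 DMSO than in siLuc DMSO and 7.43-fold higher in siStau1 DAC than in siStau1 DMSO. Both folds exceed those of IFITM3, at 2.95 and 3.46.

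Under DAC the knockdown differences were smaller. IFITM1 was 2.35-fold lower in siStau1 DAC than in siLuc DAC (log2 ratio -1.24), IFITM2 1.95-fold lower (-0.96) and IFITM3 1.90-fold lower (-0.93). Centred on genes of like GC content, these ratios were -0.97, -0.585 and -0.474. The authors' deposited table called IFITM1 (q-value 0.0296) and IFITM3 (0.0450) but not IFITM2 (0.439), where 0.904% of 17263 tested genes were called. These calls rest on the adjustment over all 6 pairs of groups: adjusted within this pair alone, the same p-values called 0 genes (0.0%; 0.197% were called at a q-value under 0.01 in the authors' deposited table), although 1199 had an unadjusted p under 0.05, and IFITM1 and IFITM3 had q-values of 0.298 and 0.374.

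The 3 genes differed little when siStau1 DAC was set against siLuc DMSO, a pair unlike in siRNA and drug. IFITM1 was 1.25-fold, IFITM2 1.32-fold and IFITM3 1.17-fold higher in siStau1 DAC, with q-values of 0.755, 0.763 and 0.777 in the authors' deposited table. None of the 3 was called, where 4.98% of 16909 tested genes were. The 40 other interferon-stimulated effectors described below had a median log2 ratio of 0.16 here, against 0.047 for all tested genes, with 22 above and 18 below 0, and the authors' deposited table called 3 of them, MX1, MX2 and XAF1, all higher. All of these comparisons share groups, so they are not independent of one another.

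The widest gap in the family lay between siLuc DAC and siStau1 DMSO, the groups that differ in both siRNA and drug. IFITM1 was 63.2-fold, IFITM2 8.58-fold and IFITM3 6.58-fold higher in siLuc DAC. Centred on genes of like GC content, the log2 ratios went from 5.98 to 5.53, from 3.10 to 2.32 and from 2.72 to 1.71. The authors' deposited table called all 3, each with a q-value of 0.00162, where 16.7% of 17632 tested genes were called.

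**Figure D3:**
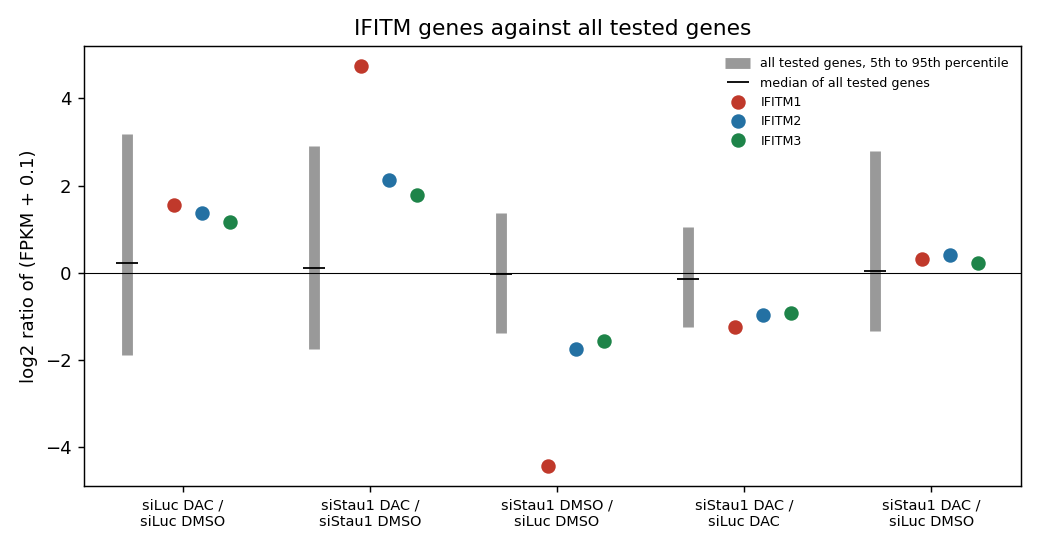
Log2 ratio of FPKM plus 0.1 (y axis) of IFITM1, IFITM2 and IFITM3 in 5 pairs of groups (x axis), beside grey bars from the 5th to the 95th percentile of all tested genes with a dash at their median. IFITM1 lies outside the bar in siStau1 DAC over siStau1 DMSO (4.75) and, with IFITM2 (-1.74) and IFITM3 (-1.56), in siStau1 DMSO over siLuc DMSO (-4.43).

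Upstream of the IFITM genes, the interferon ligands were at low levels. Of 14 ligand genes examined, IFNL1, IFNL2, IFNL3 and IFNB1 reached 1 FPKM in any group, and 8 of the others were listed at 0 in all 4 groups. IFNL1, a type III interferon, had 3.97 FPKM without and 15.5 with DAC under siLuc, and 0.0589 without and 2.71 with DAC under siStau1. This is the same order of groups as for IFITM1 except that siStau1 DAC stayed below siLuc DMSO. Under siLuc, IFNL2 (1.99 and 10.4 FPKM) and IFNL3 (3.35 and 12.9 FPKM) were also higher with DAC. IFNB1 was instead lower with DAC under siLuc, at 2.63 without and 1.27 FPKM with it, a difference that was not called. The authors' deposited table called 1 of 4 tested ligand genes, IFNL1, with DAC in siLuc (13.5% of all tested genes), and 0 of 3 with DAC in siStau1 (7.46%). With knockdown it called 1 of 4 in DMSO (0.799% of all tested genes), IFNB1, which had 2.63 FPKM in siLuc and was listed at 0 in siStau1. Under DAC it called 3 of 4 lower (0.904%), IFNL1, IFNL2 and IFNL3. How reads were split between IFNL2 and its close copy IFNL3 is uncertain.

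The receptors and signalling factors that carry the interferon signal to ISREs came next. Of 20 genes, the authors' deposited table called 4 higher and 1 lower with DAC in siLuc, where 13.5% of all tested genes were called, and 2 higher in siStau1, where 7.46% were. With knockdown it called 0 in DMSO, where 0.799% of all tested genes were called, and 1 higher and 1 lower under DAC, where 0.904% were. Their median log2 ratios were 0.25, 0.24, -0.28 and -0.23, against 0.23, 0.11, -0.020 and -0.14 for all tested genes. IRF7, a transcription factor that drives interferon genes, had 11.8 FPKM without and 78.5 with DAC under siLuc, and 6.11 without and 32.9 with DAC under siStau1, and was called in 3 of the 4 comparisons. STAT2, part of the ISRE-binding complex, had 22.6, 52.8, 13.3 and 32.2 FPKM in that order and was called with DAC in both arms. IRF3, a factor activated by RNA sensors, had 18.8, 65.3, 15.3 and 41.9 FPKM, and IFNGR1, a chain of the interferon gamma receptor, 14.5, 4.88, 21.5 and 14.3 FPKM. IRF9, also part of that complex, had 62.1, 78.1, 30.2 and 61.7 FPKM and was called in none of the 4 comparisons.

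Other interferon-stimulated effectors were compared as a list of 40 genes. With DAC in siLuc, the authors' deposited table called 14 higher and 1 lower, against 8.71% and 4.78% of all tested genes. With DAC in siStau1 it called 22 higher and 0 lower, against 4.56% and 2.89%. With knockdown in DMSO it called 0 higher and 20 lower, against 0.333% and 0.466%, and under DAC 1 higher and 9 lower, against 0.434% and 0.469%. Median log2 ratios of those tested were 0.88, 2.09, -1.47 and -0.63 in this order. Adjusting p-values within each comparison left 9 of the 20 effectors called in DMSO and 0 of the 10 under DAC. Of all tested genes, 0.208% and 0.0% were then called. This list was chosen with earlier results of these data known, so its direction is not independent evidence.

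The place of the IFITM genes within that list differed between comparisons. With knockdown in DMSO, 1 of the 40 effectors, XAF1 (2.57 FPKM in siLuc DMSO and 0.00595 in siStau1 DMSO, not called), had a lower log2 ratio than IFITM1, while 18 were below IFITM2 and 19 below IFITM3. With DAC in siStau1, 3 effectors were above IFITM1, 19 above IFITM2 and 23 above IFITM3. With DAC in siLuc, 11 effectors were above IFITM1, 13 above IFITM2 and 16 above IFITM3, and with knockdown under DAC 7 were below IFITM1, 11 below IFITM2 and 13 below IFITM3. The most abundant effectors called were ISG15, a ubiquitin-like modifier, IFI6, IFI27 and LGALS3BP. ISG15 had 1360 FPKM without and 4708 with DAC under siLuc, and 319.98 without and 2065 with DAC under siStau1. IFI27, a mitochondrial protein, had 402 FPKM without and 1138 with DAC under siLuc, and 37.2 without and 592 with DAC under siStau1. IFI6 had 752, 1669, 150 and 675 FPKM in that order, so its siStau1 DAC level stood below that of siLuc DMSO. LGALS3BP, a secreted glycoprotein, had 167, 457, 95.3 and 222 FPKM and was called in 3 of the 4 comparisons, the exception being knockdown in DMSO. Of the 40 effectors, 33 had a RefSeq promoter window, and 24 of these held at least 1 ISRE match and 13 held 2 or more. Each effector was counted by its window with the most matches, whereas the 3.57% and 0.259% given above count single windows.

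Genes for proteins known to bind or modify IFITM proteins were examined as well. Of 11 such genes, the authors' deposited table marked 1 higher and 2 lower with DAC in siLuc, against 8.71% and 4.78% of all tested genes, and 1 lower in siStau1, against 2.89%. With knockdown it called 0 of 10 tested in DMSO and 0 of 11 under DAC, where 0.799% and 0.904% of all tested genes were called. CD81, a tetraspanin found with IFITM1 at the cell surface, had 63.3 FPKM without and 151.5 with DAC under siLuc, and 65.7 without and 105 with DAC under siStau1, and was called with DAC in siLuc. ZDHHC20, which attaches palmitate to IFITM3, had 46.2, 14.2, 73.0 and 29.6 FPKM in that order and was called lower with DAC in both arms. ZMPSTE24, a membrane protease that IFITM proteins work with, had 44.996, 22.7, 54.1 and 38.4 FPKM and was called lower with DAC in siLuc. VAPA, VCP and KDM1A, which demethylates IFITM3, were called in none of the 4 comparisons.

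More distant relatives were close to silent. The 5 other genes with an IFITM symbol, IFITM5, IFITM10 and the pseudogenes IFITM4P, IFITM8P and IFITM9P, all stayed under 1 FPKM, with a highest value of 0.897 for IFITM9P in siLuc DAC. Of 9 relatives of the dispanin family that were in the table, TMEM91 was the most abundant, with 0.777 FPKM in siLuc DMSO and 1.14 in siStau1 DMSO. It was the only one tested, and it was not called.

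The neighbours of the family on chromosome 11 were examined next. Within 100 kb of the 3 genes lay 21 other genes, of which 12 stayed under 1 FPKM in every group and 4 reached 10 FPKM. With DAC in siLuc, the authors' deposited table called 3 of 9 tested neighbours higher, RIC8A, PGGHG and the antisense gene AC136475.3, against 8.71% of all tested genes. It called 0 of 10 with DAC in siStau1 (7.46% of all tested genes), and with knockdown 0 of 9 in DMSO (0.799%) and 0 of 9 under DAC (0.904%). RIC8A, a chaperone of G protein subunits, had 14.8 FPKM without and 43.1 with DAC under siLuc, and 12.9 without and 29.6 with DAC under siStau1. Its log2 ratio of 1.54 with DAC in siLuc was close to the 1.55 of IFITM1, but with knockdown in DMSO it was -0.20, against -4.43.

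PSMD13, a proteasome subunit, had 213 FPKM without and 272 with DAC under siLuc, and 173 without and 237 with DAC under siStau1. PKP3, a desmosome protein, had 21.7, 39.6, 18.3 and 27.2 FPKM, and SIGIRR, an inhibitor of interleukin-1 receptor signalling, had 13.2, 35.1, 9.22 and 26.3 FPKM. None of these was called in any of the 4 comparisons. AC136475.1, annotated as antisense within the same deposited locus as IFITM3, stayed between 0.154 and 0.879 FPKM.

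**Figure D4:**
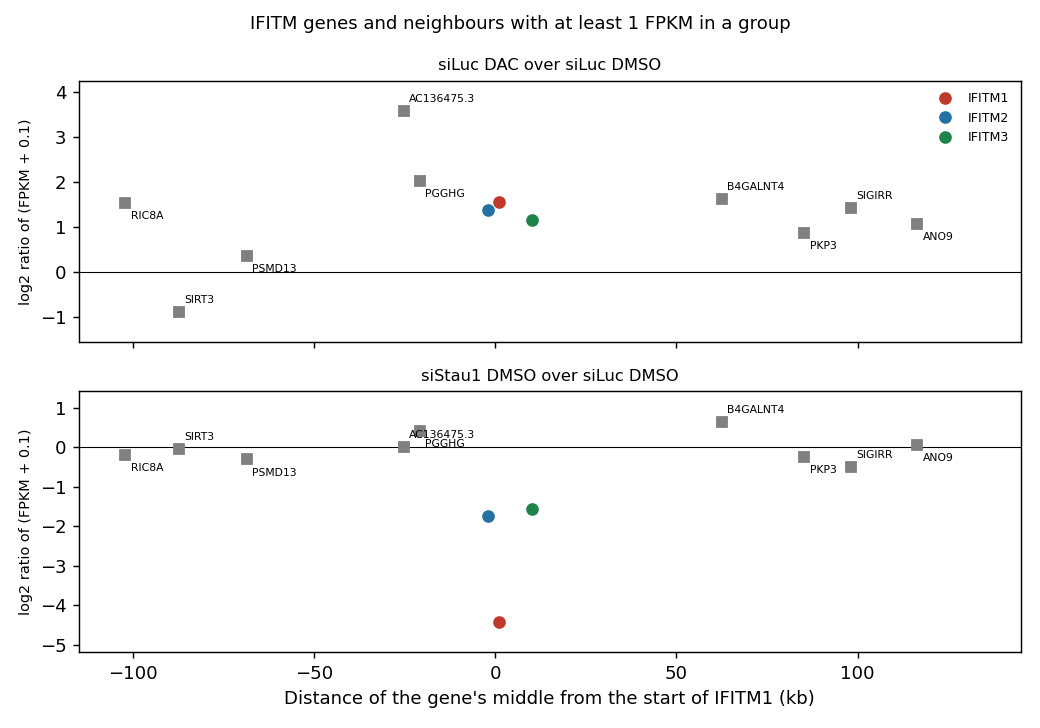
Log2 ratio of FPKM plus 0.1 (y axis) against the distance in kb of each gene's middle from the start of IFITM1 (x axis) for the 3 IFITM genes (circles) and neighbours with at least 1 FPKM in a group (grey squares), for DAC over DMSO in siLuc (top) and siStau1 over siLuc in DMSO (bottom). In the top panel RIC8A at 1.54 lies near IFITM1 at 1.55; in the bottom panel IFITM1, IFITM2 and IFITM3 (-4.43, -1.74 and -1.56) lie below the neighbours.

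The genes with the most similar patterns were sought among 8479 genes with at least 10 FPKM in 1 or more groups. Likeness was the Euclidean distance between log2 levels over the 4 group values, each gene centred on its own mean, so it rests on 4 points. IFITM2 and IFITM3 were near each other, at a distance of 0.304, IFITM3 being the 8th nearest gene to IFITM2 and IFITM2 the 9th nearest to IFITM3. IFITM1 lay 2.37 from IFITM2 and 2.64 from IFITM3, which were the 57th and the 108th nearest genes to it, its median distance to all genes being 4.52. Seen from IFITM2, IFITM1 was the 4515th nearest gene, and from IFITM3 the 6134th.

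The 5 genes nearest to IFITM1 were RARRES3 (distance 0.591), the small nucleolar RNA SNORA1B (0.676), IFNL2 (0.769), IFI27 (0.839) and IFNL1 (0.902). RARRES3, a gene named for its response to retinoids, had 4.40 FPKM without and 20.7 with DAC under siLuc, and 0.208 without and 5.67 with DAC under siStau1. RARRES3, SNORA1B, IFNL2 and IFNL1 reached 10 FPKM in siLuc DAC alone, so they entered the search only through the group where IFITM1 is highest. In siStau1 DMSO, SNORA1B, IFNL2 and IFNL1 were listed at 0, 0.0356 and 0.0589 FPKM. Those values are under the pseudocount of 0.1, which therefore sets much of their distance to IFITM1. Of the 38 effectors among the 8479 genes, 18 were in the 100 genes nearest to IFITM1, out of 8478 other genes. The effector list was written with earlier results of these data known, so this overlap is not independent evidence.

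The 5 nearest to IFITM2 were the adaptor gene SH2D3A (0.148), the small RNAs SNORD15B (0.185) and SCARNA2 (0.214), the lysosomal membrane gene LAMP3 (0.220) and the small nucleolar RNA host SNHG3 (0.222). SH2D3A had 25.05 FPKM without and 63.3 with DAC under siLuc, and 7.71 without and 37.1 with DAC under siStau1. The 5 nearest to IFITM3 were STC2, a secreted glycoprotein (0.121), MED15, a Mediator subunit (0.147), LAMP3 (0.163), OAS3, which makes a second messenger on binding double-stranded RNA (0.203), and SPSB1 (0.228). The 100 nearest of 8478 other genes held 9 of the 38 effectors for IFITM2 and 7 for IFITM3, with the same limit. LAMP3 and SPSB1 reached 10 FPKM in siLuc DAC alone, at 10.9 and 16.5 FPKM, so they entered the search only through that group.

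**Figure D5:**
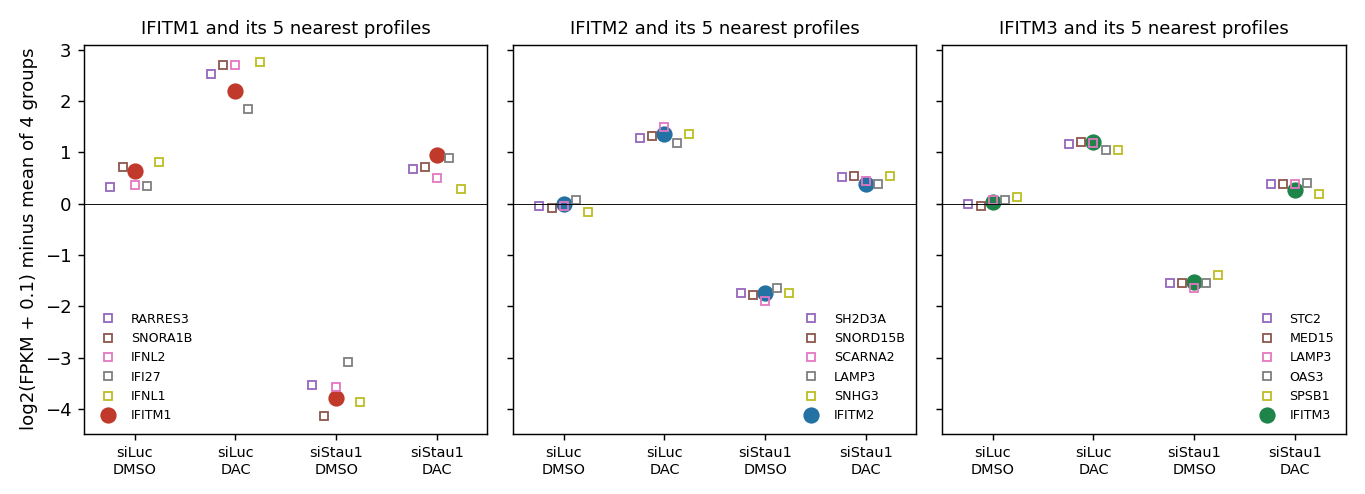
Log2 of FPKM plus 0.1 minus the gene's mean over the 4 groups (y axis) in each group (x axis) for each IFITM gene (filled circle) and the 5 genes with the smallest distance to it (open squares, set side by side). IFITM1 and its neighbours in pattern drop lowest in siStau1 DMSO, where IFITM2 and IFITM3 drop less.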

How the data were processed

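FPKM values, as deposited by the authors, stand in a Cuffdiff-style table, per the file headers, with a single value for each of 4 groups made of 8 total RNA libraries. Its p-values and q-values compare all 6 pairs of groups, and the deposited q-value was recomputed as the Benjamini-Hochberg value over 102180 tests, to within 5.3e-07. Deposited p-values go no lower than 5e-05. The submitters' processing notes name HISAT2 2.1.0, Cuffdiff 2.2.1 and the build hg38. The annotation, the handling of strand and of reads shared between genes, and library scaling are not given in the sources used here.

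Log2 ratios of FPKM plus 0.1 were computed with Python 3.11.15 and pandas 2.3.3, and the code was tested on simulated data. With no value per library, no test was run here: a gene counts as called where the authors gave it a q-value under 0.05, and depth is unknown. All 58699 identifiers were found in GENCODE release 29, from which positions and transcript sequences came; promoters came from RefSeq. Centring on GC content used 20 bins of protein-coding genes that reached 1 FPKM in both groups. The members and lists were chosen with earlier results of these data known. Named were all members, other IFITM genes, neighbours within 100 kb with at least 10 FPKM, the 5 nearest patterns, and from each list up to 4 called genes of highest FPKM, plus for signalling and partner genes the 4 highest. A signalling gene that this rule names is not reported here. MX1, MX2, XAF1, EPCAM, KRT19, COL1A1, PGGHG, AC136475.3, AC136475.1, TMEM91 and VIL1 were named after their values were seen. Tables of repeat elements in the 3 J2 libraries name no gene and were not used.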

Additional observations from a re-analysis of the deposited data

How the results depend on the processing

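Log2 ratios of the 3 genes were recomputed with pseudocounts of 1 and 0.01, with median centring, with GC bin centring and with FPKM scaled to the sum outside the 100 highest genes. In the 5 comparisons other than siStau1 DAC over siLuc DMSO, 71 of these 75 values stayed on the same side of a 2-fold difference and 0 changed direction. For DAC in siLuc, GC centring gave 0.81 for IFITM2 and 0.40 for IFITM3, and scaling outside the 100 highest genes gave 0.99 for IFITM3. For knockdown under DAC, GC centring gave -0.97 for IFITM1, -0.585 for IFITM2 and -0.474 for IFITM3. For siStau1 DAC over siLuc DMSO, GC centring turned IFITM3 from 0.23 to -0.054. Median ratios over genes that reached 1 FPKM in both groups were 0.079, 0.021, -0.017 and -0.11 for the 4 main comparisons, and the scaling factor of siLuc DAC was 0.892 relative to siLuc DMSO. Scaling to the sum of all FPKM was not among these settings. That sum was 1129080 in siLuc DMSO and 1793610 in siLuc DAC. Shares of all FPKM there were 0.0169% and 0.0313% for IFITM1, 0.0169% and 0.0273% for IFITM2, and 0.0530% and 0.0746% for IFITM3. Each share with DAC was less than 2-fold that without it.

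With knockdown under DAC, 0 IFITM genes were called either at a q-value under 0.01 or when adjusted within the comparison, against 2. Of the effectors, adjusting within the comparison called 0 there, against 10. Of all genes tested there, 0.197% were called at a q-value under 0.01 and 0.0% within the comparison, against 0.904%. With knockdown in DMSO, 11 effectors were called at a q-value under 0.01 and 9 when adjusted within the comparison, against 20. The shares of all genes tested there were 0.346% and 0.208%, against 0.799%. The comparison of siLuc DAC with siStau1 DMSO was added after seeing the data. No paired analysis was possible because the analysed table gives a single value for each group, and for the same reason fits with a replicate left out were not run.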

Other observations

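DNMT1, the maintenance methyltransferase that decitabine traps, had 115 FPKM without and 86.2 with DAC under siLuc, and 204 without and 79.4 with DAC under siStau1. It was not called in the authors' deposited table in any of the 4 main comparisons. The 5 targeted and drug genes also include DNMT3A and DNMT3B. Of the 5, the authors' deposited table called 1 with DAC in siLuc, STAU2, which was lower, where 13.5% of all tested genes were called. It called 0 with DAC in siStau1 (7.46% of all tested genes), and with knockdown 0 in DMSO (0.799%) and 0 under DAC (0.904%).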
